A study of Mus musculus with 9 samples.

Results

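Circular RNAs (circRNAs) whose host genes encode regulators of small GTPases were examined in mouse liver. The members were matched by gene symbol, from the host gene named in the deposited table, and the symbols were chosen with earlier results of these data known. They cover the GAPs named Arhgap, the GEFs named Arhgef, DOCK exchange factors, Rab GAPs (Tbc1d and Rabgap), DENN-domain proteins (Dennd), Rap GEFs (Rapgef), Rap GAPs (Sipa1), Ral GAPs (Ralgap), Ras GAPs (Rasa), Arf GAPs (Agap and Asap), Arf GEFs (Arfgef), the IQGAP scaffolds and genes named Rab with a number. This gave 349 circRNAs, or rings, of 90 host genes, out of 11312 rings of 3929 host genes or gene groups. The Rab-named hosts are mostly GTPases themselves, with a few partners such as Rab3gap1, Rab3ip and Rab11fip3, and IQGAPs, despite the name, are scaffolds without GAP activity.

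The livers came from wild-type C57 BL6 mice of 8 weeks and about 20 g, in 3 groups of 3 libraries each. Control mice received saline. APAP mice received 500 mg/kg acetaminophen, a hepatotoxic overdose. The dmPGE2+APAP mice received 300 µg/kg dmPGE2, a stable analogue of prostaglandin E2, 1 hour before the same dose of APAP, and livers were taken 6 hours after APAP. Strand-specific (dUTP) libraries were prepared after removal of ribosomal RNA from 1 µg of total RNA. Nothing in the labels ties a library to a numbered animal, so p-values reflect only the spread among these libraries, which may be technical.

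Small GTPases are molecular switches that are active with GTP bound and inactive with GDP bound. Guanine nucleotide exchange factors (GEFs) load GTP and GTPase-activating proteins (GAPs) speed its hydrolysis. In hepatocytes, Rab and Arf proteins direct vesicle traffic to the canalicular and sinusoidal membranes, Rac and Cdc42 shape the actin cytoskeleton and tight junctions, and Ras, Rap and Ral proteins relay growth and adhesion signals. A circRNA forms when the end of an exon (the donor) is spliced back to the start of the same or an earlier exon (the acceptor), and the read that spans this back-splice junction is what was counted. Ring counts therefore describe the circular products of these genes, not their mRNA or protein.

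The back-splice junctions below belong to 8 of the 10 most abundant member rings, those with both ends at annotated exons within coding sequence. They are shown because they identify the most read rings, and because 3 of the hosts each contribute a pair of rings that share a splice site. Each sequence is read 5′ to 3′ from transcripts of the GENCODE M21 annotation (GRCm38), with the last 20 bases of the donor exon in capitals and the first 20 bases of the acceptor exon in lower case. Both Dennd1b rings have the same capitals, since they share the donor of exon 9, and both Rasa2 rings, as both Arhgap32 rings, have the same lower-case letters, since they share an acceptor.
Dennd1b mmu_circ_0000083, exons 6 to 9, chr1:139053346-139062971, plus strand: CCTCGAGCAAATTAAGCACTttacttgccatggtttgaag
Dennd1b mmu_circ_0000081, exons 4 to 9, chr1:139040000-139062971, plus strand: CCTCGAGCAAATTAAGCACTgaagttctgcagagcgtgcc
Rasa2 mmu_circ_0001829, exons 2 to 5, chr9:96591950-96611499, minus strand: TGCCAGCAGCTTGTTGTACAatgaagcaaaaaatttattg
Rasa2 mmu_circ_0001830, exons 2 to 4, chr9:96602713-96611499, minus strand: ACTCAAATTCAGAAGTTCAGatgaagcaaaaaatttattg
Arhgap32 mmu_circ_0001764, exons 6 to 9, chr9:32181842-32190061, plus strand: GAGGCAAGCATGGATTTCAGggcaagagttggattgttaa
Arhgap32 mmu_circ_0001765, exons 6 to 10, chr9:32181842-32208265, plus strand: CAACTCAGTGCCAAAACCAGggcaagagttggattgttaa
Rabgap1l novel_circ_0006885, exons 9 to 10, chr1:160700712-160702460, minus strand: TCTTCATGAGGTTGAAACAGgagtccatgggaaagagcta
Tbc1d14 mmu_circ_0001341, exons 4 to 7, chr5:36519273-36525048, minus strand: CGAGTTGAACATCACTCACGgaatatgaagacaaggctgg

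Control 3 stood apart from the other libraries. It held 4362 back-splice reads, 25.7 times fewer than the median of the other 8, which held between 69268 and 154449. It showed 25 member rings, against 109 to 175 in the others, and reads for 16 of the 90 member hosts. Values are therefore given with and without it, and the other 8 libraries are called deep libraries. Here deep and shallow refer to back-splice reads only, since total read numbers were not used. Levels are in CPM, back-splice reads per 1000000 such reads of the library, with no length term, so they compare a gene between samples and rank hosts only by junction reads. The table holds no count of 1, its smallest count above 0 being 2, so a ring listed at 0 may still have had a read.

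The member hosts together held a nearly constant share of all back-splice reads. The share was 2.65%, 2.61% and 2.73% in the Control libraries, 2.81%, 2.68% and 2.82% in the APAP libraries, and 2.57%, 2.72% and 2.79% in the dmPGE2+APAP libraries. The value of Control 3 rests on 119 member reads and has a 95% Wilson interval of 2.28% to 3.25%, which covers counting error only and spans the shares of the other 8 libraries. The group means were 2.66% ± 0.062, 2.77% ± 0.075 and 2.69% ± 0.11 (SD, n = 3 each), and the ranges of the 3 groups overlapped. Reads were concentrated in few hosts, with 12 hosts holding 70.9% of the 24531 member reads and 10 rings holding 37.1%.

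The hosts named Tbc1d or Rabgap, grouped as Rab GAPs by symbol whether or not each has that activity, were the largest family by reads. Their 20 hosts gave 77 rings and 22.6% of the member reads, led by Rabgap1l, a TBC-domain Rab GAP. Rabgap1l had 2046, 2016 and 1834 CPM in Control, 2540, 2330 and 2166 CPM in APAP, and 2348, 2361 and 2788 CPM in dmPGE2+APAP. On this scale every APAP and dmPGE2+APAP library lay above all 3 Control libraries. With the TMM library scaling that the test uses, Control 1 was at 2202 and APAP 3 at 2166 CPM, so APAP and Control overlapped, while the dmPGE2+APAP libraries (2434 to 2991 CPM) stayed above Control. The edgeR test did not call this difference. The log2 fold change was 0.32 (95% interval -0.25 to 0.88) for APAP against Control and 0.43 (-0.13 to 0.99) for dmPGE2+APAP against Control, each with an edgeR adjusted p of 1.0. Without Control 3 these values were 0.16 and 0.26. Tbc1d14, a Rab11-binding protein of autophagosome formation, had 2227, 1647 and 459 CPM in Control, 1831, 1462 and 2425 CPM in APAP, and 1236, 1766 and 1394 CPM in dmPGE2+APAP. The lowest of these values, in Control 3, rests on 2 reads, and the groups overlapped with or without it. Tbc1d5, a retromer-bound Rab7 GAP, averaged 1007 CPM and ranged from 770 to 1415 CPM across the 9 libraries. Rabgap1, a paralogue of Rabgap1l, had 155 to 453 CPM in the deep libraries and no read in Control 3.

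The DENN-domain proteins, most of which are Rab GEFs, followed with 57 rings of 8 hosts and 20.7% of the member reads. Dennd1b, of a family that activates Rab35 in endocytic recycling, was the most abundant member host. It had 2784, 2647 and 3439 CPM in Control, 2844, 2988 and 2700 CPM in APAP, and 2547, 2735 and 2213 CPM in dmPGE2+APAP. Dennd5b had 1942, 2170 and 3210 CPM in Control, 1583, 1581 and 1978 CPM in APAP, and 1742, 1493 and 2099 CPM in dmPGE2+APAP, and again the groups overlapped. Dennd4a, a GEF for Rab10, averaged 714 CPM. Summed over the family, the dmPGE2+APAP libraries lay between 4992 and 5298 CPM, below the APAP libraries at 5540 to 5939 CPM and the Control libraries at 5827 to 7565 CPM. With TMM scaling this order was lost: the dmPGE2+APAP libraries lay at 5356 to 5720 CPM, the APAP libraries at 5587 to 6324 CPM and Control 3 at 4800 CPM, below them all. This family sum was not tested, because the families were set with results of these data known.

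The GAPs named Arhgap gave 48 rings of 10 hosts and 19.4% of the member reads. Arhgap32, a GAP known from neurons, had 1696, 1708 and 2980 CPM in Control, 1850, 1782 and 2036 CPM in APAP, and 2389, 2250 and 1559 CPM in dmPGE2+APAP. Arhgap12, a Rac GAP with SH3 and WW domains on chromosome 18, had 1431, 1654 and 2751 CPM in Control, 1546, 1919 and 1660 CPM in APAP, and 1386, 1665 and 2056 CPM in dmPGE2+APAP. In both hosts the highest value was that of Control 3, from 13 and 12 reads, but with TMM scaling its values of 1891 and 1746 CPM lay within the range of the other libraries. Arhgap26 (GRAF1), a BAR-domain GAP of endocytosis, averaged 848 CPM. The family sum was 4597 and 4993 CPM in the deep Control libraries, 4850 to 5356 CPM with APAP and 5559 to 5953 CPM with dmPGE2+APAP, while Control 3 reached 9399 CPM. With TMM scaling Control 3 was at 5964 CPM, and the dmPGE2+APAP libraries (6016 to 6138 CPM) lay above all Control (4948 to 5964 CPM) and APAP libraries (5209 to 5449 CPM). The place of Control 3 in this order thus depended on the scaling, and the sum was not tested.

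**Figure D1:**
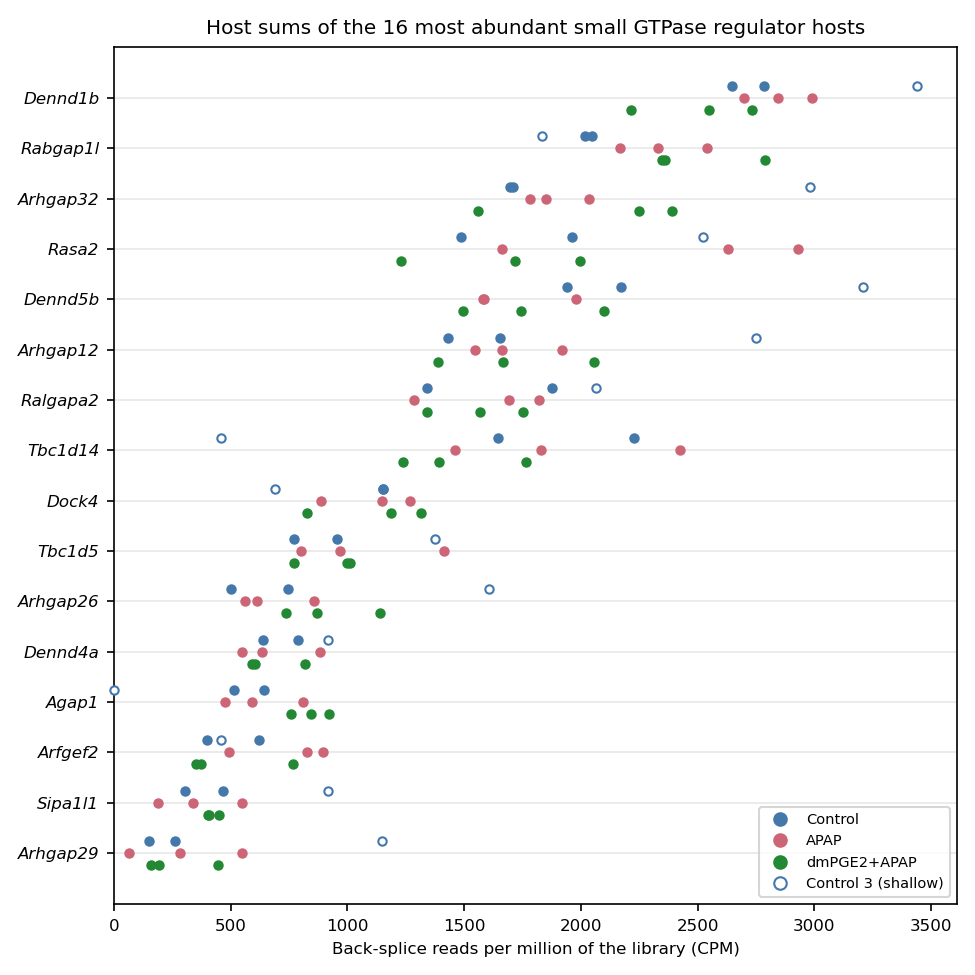
Host sums in CPM (x axis) for the 16 most abundant hosts (rows), 1 point per library, coloured by group, with the shallow library Control 3 as an open circle. Open circles lie at the edge of many rows, as in Dennd5b at 3210 CPM and Tbc1d14 at 459 CPM, and among the 12 uppermost hosts only Rabgap1l has all Control points below all others, which with TMM scaling holds against dmPGE2+APAP but not against APAP.

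The remaining GAPs were carried by single hosts. Rasa2, a Ras GAP that binds phosphoinositides, held 1721 of the 1933 Ras GAP reads. It had 1962, 1485 and 2522 CPM in Control, 2632, 1663 and 2931 CPM in APAP, and 1228, 1998 and 1716 CPM in dmPGE2+APAP, with overlap between all groups. Its mean was 2408 ± 663 CPM with APAP and 1647 ± 390 CPM with dmPGE2+APAP (SD, n = 3 each). Ralgapa2, a catalytic subunit of the Ral GAP complex, had 1340, 1877 and 2063 CPM in Control, 1822, 1690 and 1285 CPM in APAP, and 1751, 1342 and 1568 CPM in dmPGE2+APAP. Agap1, an Arf GAP that acts on AP-3 coated endosomes, had 641, 515 and 0 CPM in Control, 810, 475 and 592 CPM in APAP, and 846, 757 and 923 CPM in dmPGE2+APAP. Sipa1l1, the only Rap GAP host of the rule, averaged 448 CPM over 5 rings.

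Exchange factors outside the DENN family comprised the DOCK, Arfgef, Arhgef and Rapgef hosts, with family means from 272.5 CPM (Rapgef) to 1309 CPM (DOCK). Dock4, a DOCK-family activator of Rac, had 1152, 1154 and 688 CPM in Control, 1150, 886 and 1270 CPM in APAP, and 1186, 827 and 1315 CPM in dmPGE2+APAP. It gave 13 of the 32 DOCK rings. Arfgef2 (BIG2), which loads Arf proteins at the trans-Golgi, had 622, 400 and 459 CPM in Control, 828, 895 and 491 CPM in APAP, and 373, 353 and 767 CPM in dmPGE2+APAP. Arhgef7 (beta-PIX), a GEF for Rac and Cdc42 that binds PAK, led the 9 Arhgef hosts with a mean of 270 CPM. Rapgef6 led the Rap GEFs with 165 CPM. Among Rab-named hosts Rab11a, the recycling endosome GTPase, was the most abundant with a mean of 242 CPM, and Iqgap2, the IQGAP known for its expression in liver, averaged 288 CPM.

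**Figure D2:**
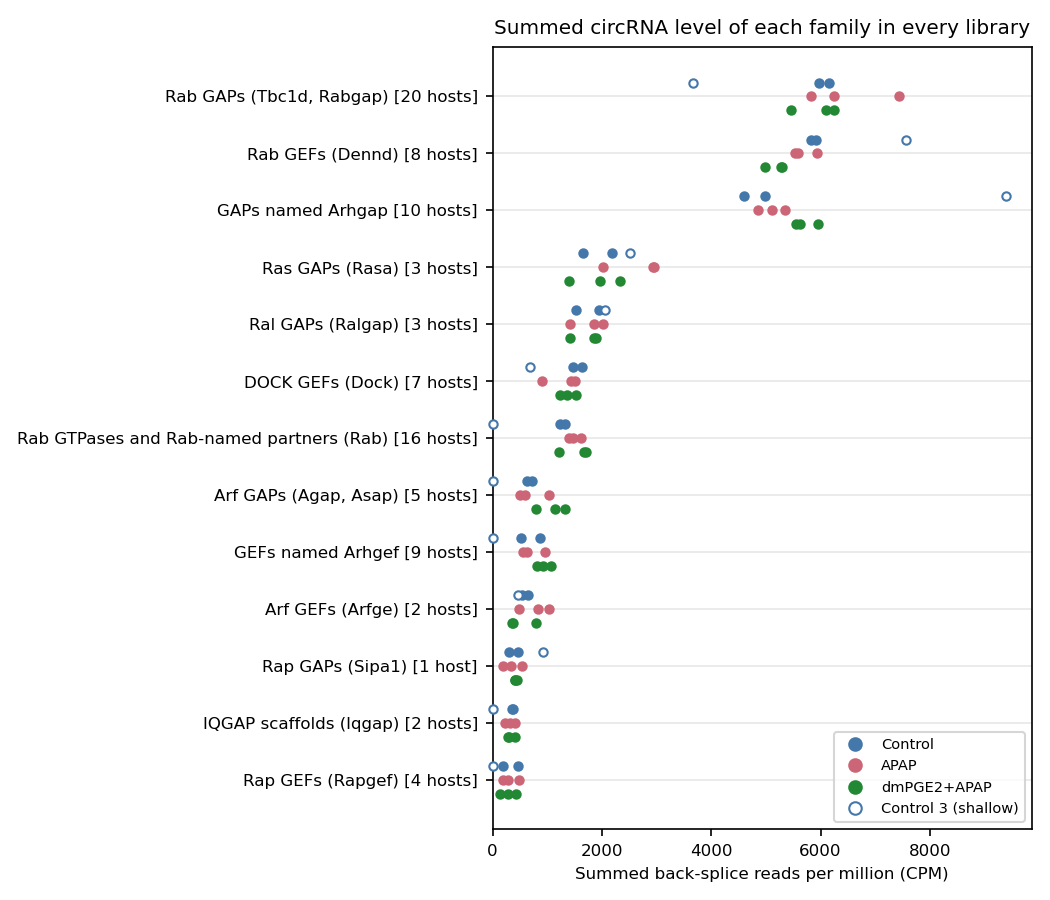
Summed CPM of each of the 13 families (rows, with the number of hosts), 1 point per library, coloured by group, with Control 3 as an open circle. The 3 uppermost families lie between 4597 and 7435 CPM in the deep libraries, and 5 families are at 0 in Control 3.

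Other genes of the pathway were read from lists. Of 77 Ras, Rac, Arf and related GTPases listed outside the Rab family, 17 had a ring in the table and 15 were tested, with Rras2 highest at 896 CPM, and Rhoa, Rac1, Hras, Arf1 and Ran had none. Of 90 further GEFs not matched by the gene symbols above, 41 had rings, led by the Arf GEF Psd3 at 6665 CPM. Of 73 further GAPs and GDIs, 32 had rings, led by the Rab GAP Evi5 at 4165 CPM. None of the 15, 29 and 20 tested hosts of these lists passed an edgeR adjusted p of 0.05 in any comparison. At an unadjusted p under 0.05, the GEF list had 3 hosts for APAP against Control (10.3%, against 5.34% of all hosts), 1 for dmPGE2+APAP against APAP (3.45%, against 2.71%) and 3 for dmPGE2+APAP against Control (10.3%, against 4.24%). The list of GAPs and GDIs had 1, 0 and 1 such hosts in the same comparisons, and the GTPase list had 0 in each.

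Markers of liver cell types were read as ring hosts, as a check of the tissue. Of 16 hepatocyte markers 11 had rings, with a summed level of 13037 to 19610 CPM in the deep libraries. Most of this sum came from 1 host, Aass, with a mean of 13450 CPM over the 9 libraries. Cps1 followed with 874 CPM, while Alb had 137 CPM and Hnf4a 30.8 CPM. Of 10 endothelial markers 5 had rings (780 to 1730 CPM), mostly from Mrc1 with a mean of 1193 CPM, followed by Stab2 with 92.8 CPM. Of 11 Kupffer cell and macrophage markers only Adgre1 had rings (245 to 975 CPM). Pkhd1 was the only one of 6 cholangiocyte markers (97 to 464 CPM) and Ets1 the only one of 10 neutrophil and lymphocyte markers (0 to 183 CPM), while 0 of 8 stellate cell and fibroblast markers had a ring. No tested marker was called by edgeR in any comparison. An unadjusted edgeR p under 0.05 was found only for Alb, in APAP against Control, which is 1 of 9 tested hepatocyte markers (11.1%, against 5.34% of all hosts). In whole liver, fewer cells of a type and fewer rings per cell cannot be told apart.

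Of the 349 rings 336 were exonic and 13 intronic, and 327 exonic rings had both ends at exon ends of a single M21 transcript. These spanned a median of 4 annotated exons (quartiles 3 and 5), as did all 9851 rings matched in the same way. The exon content between the ends was taken from the annotation and was not measured. The median summed exon length was 477 bases, against 498 in all matched rings, and 37.3% against 38.2% had a length divisible by 3. Exon 2 was the first exon in 86 member rings (26.3%, against 27.8%). By this annotation, single-exon rings numbered 3 (0.917%, against 2.41%). The deposited features give another count, with a single exon listed for 73 of the 349 member rings and 2751 of all 11312 rings. The reason for this difference was not tested.

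Counted per ring, the matched host transcripts of the members had more exons. They had a median of 23 exons (quartiles 19 and 34), against 18 (12 and 25) over all matched rings, and the ring began at a median exon rank of 6 against 4. The intron before the ring had a median of 8523 bases and the intron after it 6356 bases, against 6484 and 4874 bases. Member hosts also gave more rings each, with a mean of 3.88 against 2.85, and 26 of 90 (28.9%) gave 5 or more against 16.8% of all hosts. These are descriptions over rings, which share hosts and splice sites, and no test was made. Rings with reads in all 8 deep libraries made up 14.6% of members and 13.1% of all rings, and held 70.4% and 73.6% of the respective reads. Another 112 member rings (32.1%, against 38.7%) had reads in 1 deep library only. Deposited identifiers that start with mmu_circ belonged to 28 member rings (8.02%, against 7.27%), and these held 40.4% of the member reads.

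Splice sites were shared widely. Of the 327 matched member rings, 136 (41.6%) shared their acceptor and 117 (35.8%) their donor with another member ring, against 42.9% and 35.3% over all matched rings. The acceptor of Rabgap1 exon 2 (position 37469377 of chromosome 2) was used by 7 rings, the largest number for 1 site. The acceptors of Tbc1d14 exon 4, Rabgap1l exon 2 and Dock4 exon 2 were each used by 6. The donor of Dennd5b exon 10 served 5 rings. Rabgap1l gave 19 rings, the most of any member, followed by Dennd5b with 18, Ralgapa2 with 14 and Dock4 and Dennd4a with 13 each. In Rabgap1l the 2-exon ring novel_circ_0006885 took 54.9% of the host's reads, from an acceptor and a donor that were each used by 4 rings. In Dock4 the reads were spread more evenly, and its most read ring, mmu_circ_0000368 of exons 9 to 12, took 27.4%.

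**Figure D3:**
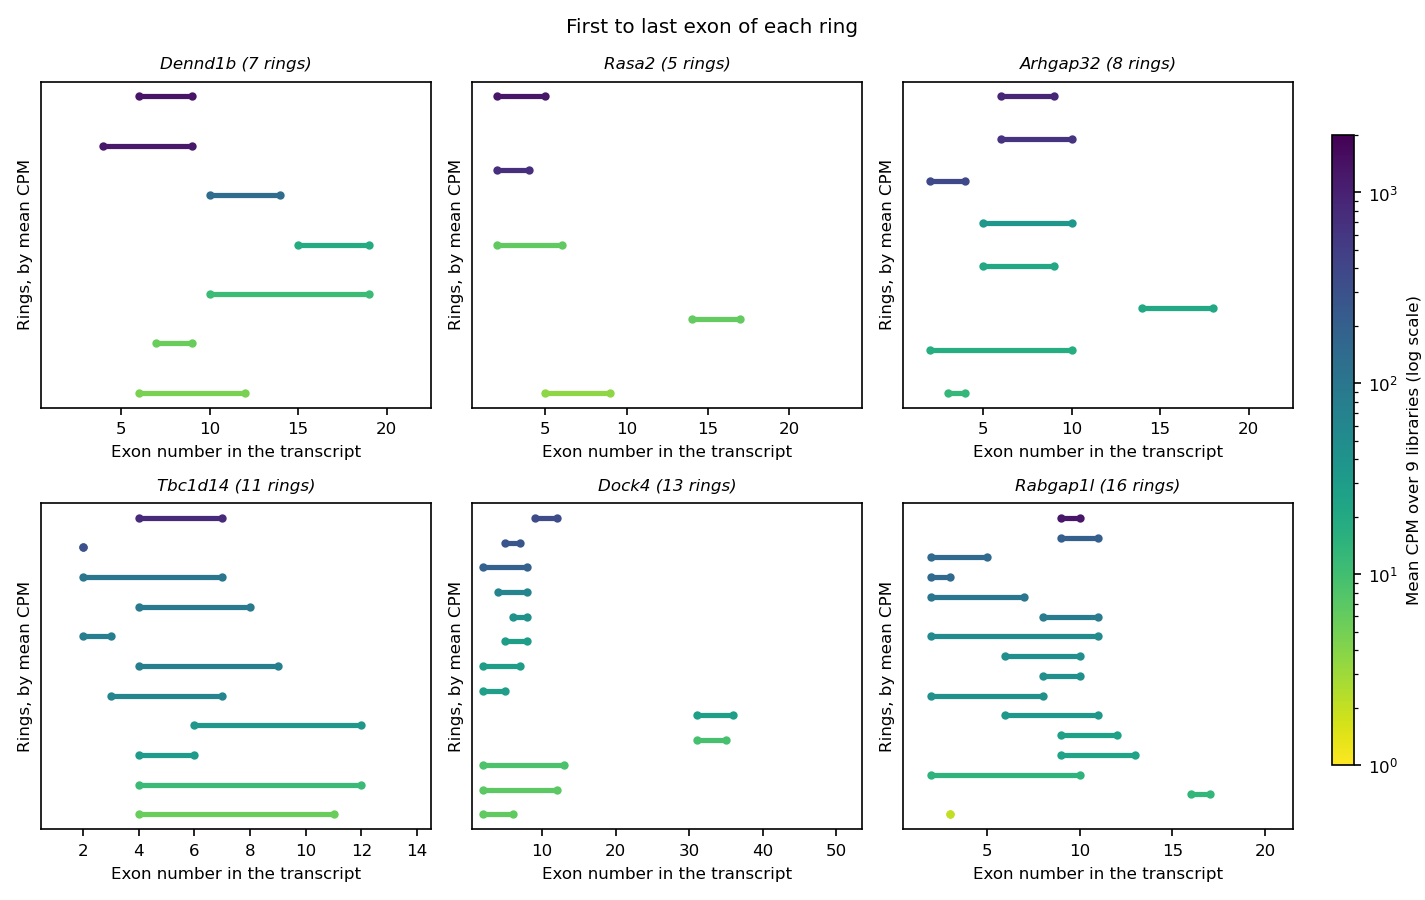
Rings of 6 hosts drawn from first to last exon (x axis, exon number in the matched transcript), 1 line per ring, ordered and coloured by mean CPM over the 9 libraries. Rings of Tbc1d14, Dock4 and Rabgap1l start repeatedly at the same exon (exon 4 of Tbc1d14 and exon 2 of Dock4 and Rabgap1l), whereas the reads of Rasa2 lie in the 2 uppermost rings.

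Pairs of abundant rings with a common splice site allowed the choice between sites to be followed within a host. Among the 20 most abundant member rings there were 5 such pairs, and each was read as the share of the less abundant ring in the reads of the pair. For Dennd1b, exon 4 in place of exon 6 as the acceptor had a share of 49.0%, 50.6% and 53.3% in Control, 45.7%, 46.0% and 37.5% with APAP, and 55.9%, 45.2% and 48.4% with dmPGE2+APAP. Together the 2 rings held 92.1% of the Dennd1b reads. For Rasa2, where the pair held 99.0% of the reads, the 3-exon ring ending at exon 4 had 31.7%, 23.8% and 54.5% in Control, 35.0%, 40.7% and 33.5% with APAP, and 29.2%, 35.4% and 24.9% with dmPGE2+APAP. The Control groups of Rasa2 overlapped with the others, and its value of 54.5% in Control 3 rests on 11 reads.

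For Arhgap32, the donor of exon 10 in place of exon 9 had a share of 39.1% ± 5.54 in Control, 41.1% ± 7.43 with APAP and 45.7% ± 3.61 with dmPGE2+APAP (SD, n = 3 each). For Dennd5b the shares were 30.0% ± 11.4, 37.4% ± 4.64 and 28.1% ± 11.2 (SD, n = 3 each). In Tbc1d5 the rings end at exon 13 and start at exon 9 (novel_circ_0005107) or exon 10 (novel_circ_0005106). The exon 9 start had 47.6%, 48.0% and 50% in Control, 28.3%, 46.8% and 31.3% with APAP, and 34.5%, 20.2% and 38.1% with dmPGE2+APAP, so that all 6 libraries with APAP lay below the 3 Control libraries. The 50% of Control 3 rests on at most 6 reads, and the 46.8% of APAP 2 lay just below the 47.6% of Control 1. The difference was -13.1 percentage points for APAP and -17.6 for dmPGE2+APAP against Control, each with an exact permutation p of 0.1 (two-sided), the smallest that 3 against 3 libraries can give, and an adjusted p of 0.5 over the 15 comparisons of the 5 pairs. The difference in Dennd1b for APAP against Control, of -7.87 percentage points, had the same exact permutation p of 0.1 and adjusted p of 0.5. The other 12 comparisons had exact permutation p-values from 0.2 to 1.0.

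Besides the back-splice reads, the table lists non-junction reads of each ring, that is reads at its splice sites without the back-splice, for libraries in which the ring was seen. The back-spliced share was taken as 2J/(2J + NJ), with J the back-splice reads, counted once for each of the ring's ends, and NJ the non-junction reads. It could be read in all 8 deep libraries for 47 member rings of 28 hosts, out of 51 member rings with reads in all 8. The need for reads in every deep library favours abundant rings. A share also needs a non-junction list that could be split, and the abundant rings Dennd1b mmu_circ_0000083 and Rabgap1l novel_circ_0006885 have no share here. Rings with high non-junction counts throughout may be among those left out, which would raise the shares given here and pooled below. This was not tested. The mean share ran from 23.8% in a Rabgap1l ring of exons 2 to 7 (novel_circ_0006891) to 96.6% ± 1.23 (SD over 8 libraries) in the Rasa2 ring of exons 2 to 5, and its median over the rings was 54.0%, against 56.6% over all 1125 rings read in this way. The Arhgap12 ring of exons 2 to 3 (mmu_circ_0000840) had 90.8% ± 2.39 and the longer Arhgap32 ring mmu_circ_0001765 had 83.7% ± 2.22. At these sites of Rasa2 and Arhgap12 most of the reads listed were thus back-spliced, by this measure, in every deep library. How the caller counted non-junction reads is not given, so the share is not the circular part of a host's transcripts. The Rasa2 ring lay between 94.7% and 98.7% in the 8 libraries. The second Rasa2 ring, which shares its acceptor, had a lower share of 69.2% ± 7.58.

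**Figure D4:**
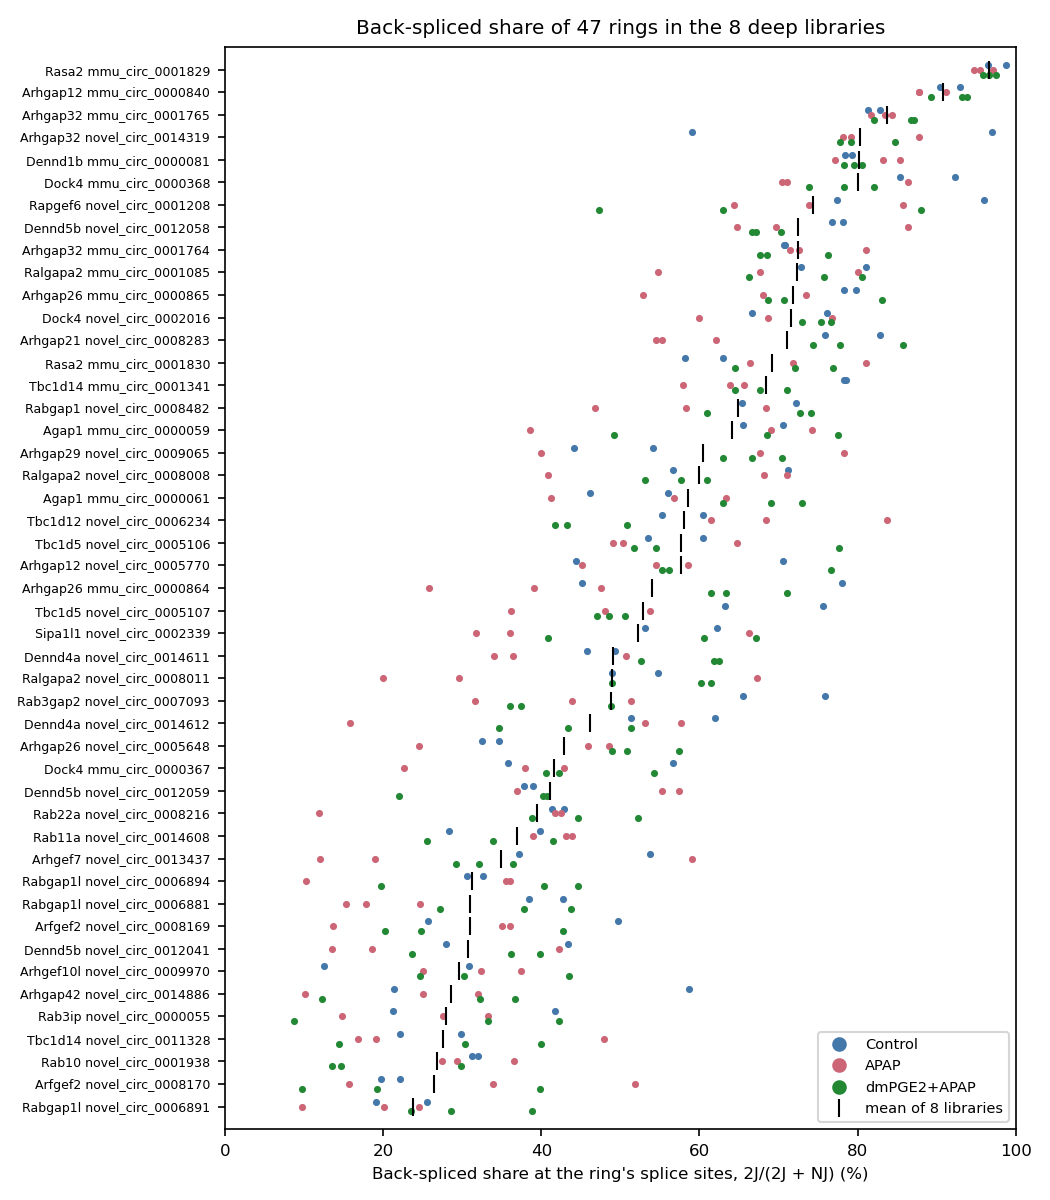
Back-spliced share at the splice sites of 47 member rings (rows, by host and deposited identifier), 1 point per deep library, coloured by group, with the mean of the 8 libraries as a black bar. The Rasa2 ring mmu_circ_0001829 lies between 94.7% and 98.7%, whereas rings in the lower rows spread widely, as Arfgef2 novel_circ_0008170 from 9.72% to 51.9%.

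Pooled over these 47 rings, the back-spliced share was 61.2% and 62.0% in the deep Control libraries, 57.1%, 59.0% and 49.4% with APAP, and 56.3%, 57.7% and 59.0% with dmPGE2+APAP. Both Control values lay above all others. The difference of means was -6.44 percentage points for APAP against Control and -3.94 for dmPGE2+APAP against Control, with an exact permutation p of 0.2 (two-sided) each, the smallest that 2 against 3 libraries allow. All 1125 rings had the same order, with differences of -6.89 and -4.59 percentage points. Single member rings showed it less uniformly. With APAP, 6 of 47 rings lay wholly below the Control values and 3 wholly above, which makes 19.1% apart, against 27.2% of all 1125 rings. For dmPGE2+APAP against Control 8 lay below and 5 above (27.7%, against 26.9%), and for dmPGE2+APAP against APAP 5 lay above and 1 below (12.8%, against 12.2%). In Control 3 the pooled share was 6.59% over the 19 member rings read in all 9 libraries, against 69.4% to 73.7% in the other 8 libraries. The corresponding value over all 391 such rings was 6.14%, and its part in the results was not tested.

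The 3 groups were compared on host sums with edgeR's quasi-likelihood test over all 2358 host genes with at least 5 reads in at least 3 libraries. Of the 90 member hosts 62 passed this filter, and they held 98.4% of the member reads. The other 28 had at most 29 reads in any library. None of the 62 was called at an adjusted p of 0.05 in any comparison. In the APAP against Control comparison 8 hosts of all (0.339%) were called, in dmPGE2+APAP against APAP 3 (0.127%), in dmPGE2+APAP against Control 4 (0.170%), and in the joint test of the 3 groups 8 (0.339%), so calls were rare over the whole table. DESeq2 and limma-voom also called 0 member hosts in each comparison. At an unadjusted p under 0.05, edgeR had 1 member host for APAP against Control (1.61%, against 5.34% of all hosts), 0 for dmPGE2+APAP against APAP (against 2.71%), 1 for dmPGE2+APAP against Control (against 4.24%) and 1 in the joint test (against 3.14%). DESeq2 had 0, 2, 1 and 0 such hosts and limma-voom 4, 4, 1 and 2. The shares over all hosts above are those of edgeR. None is given here for the other tools, so their counts cannot be set against a background.

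The median log2 fold change of the member hosts was 0.13 for APAP against Control, 0.01 for dmPGE2+APAP against APAP and 0.14 for dmPGE2+APAP against Control, beside 0.15, 0.03 and 0.20 over all hosts tested. Without Control 3 the medians were -0.06, 0.02 and 0.07 for the members and -0.04, 0.03 and 0.03 for all hosts. The shift of the APAP against Control median from above to below 0 was therefore shared by the whole table. CPM ranges that did not overlap between the groups, over the deep libraries, were found for 7 members in APAP against Control (11.3%, against 20.1% of all hosts), 7 in dmPGE2+APAP against APAP (11.3%, against 10%) and 10 in dmPGE2+APAP against Control (16.1%, against 20.8%). With TMM scaling the members apart were 8 (12.9%, against 20.1% of all hosts), 7 (11.3%, against 9.84%) and 10 (16.1%, against 20.5%).

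For abundant hosts the data bounded the size of any difference. Over the 12 most abundant hosts the log2 fold changes lay between -0.28 and 0.48 for APAP against Control, between -0.52 and 0.45 for dmPGE2+APAP against APAP, and between -0.20 and 0.43 for dmPGE2+APAP against Control, with standard errors from 0.26 to 0.43. The widest 95% intervals allowed changes of up to 2.10, 2.33 and 2.38 times in the 3 comparisons. Leaving out Control 3 brought these bounds to 1.84, 2.06 and 2.28 times. Rasa2 had the largest estimates in the first pair of comparisons. It was 0.48 (SE 0.30, 95% interval -0.12 to 1.07, edgeR adjusted p = 0.957) for APAP against Control and -0.52 (SE 0.29, -1.09 to 0.04, adjusted p = 1.0) for dmPGE2+APAP against APAP. Without Control 3 the latter interval was -0.94 to -0.11 with an unadjusted edgeR p of 0.015 and an adjusted p of 1.0. These comparisons share the APAP libraries.

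**Figure D5:**
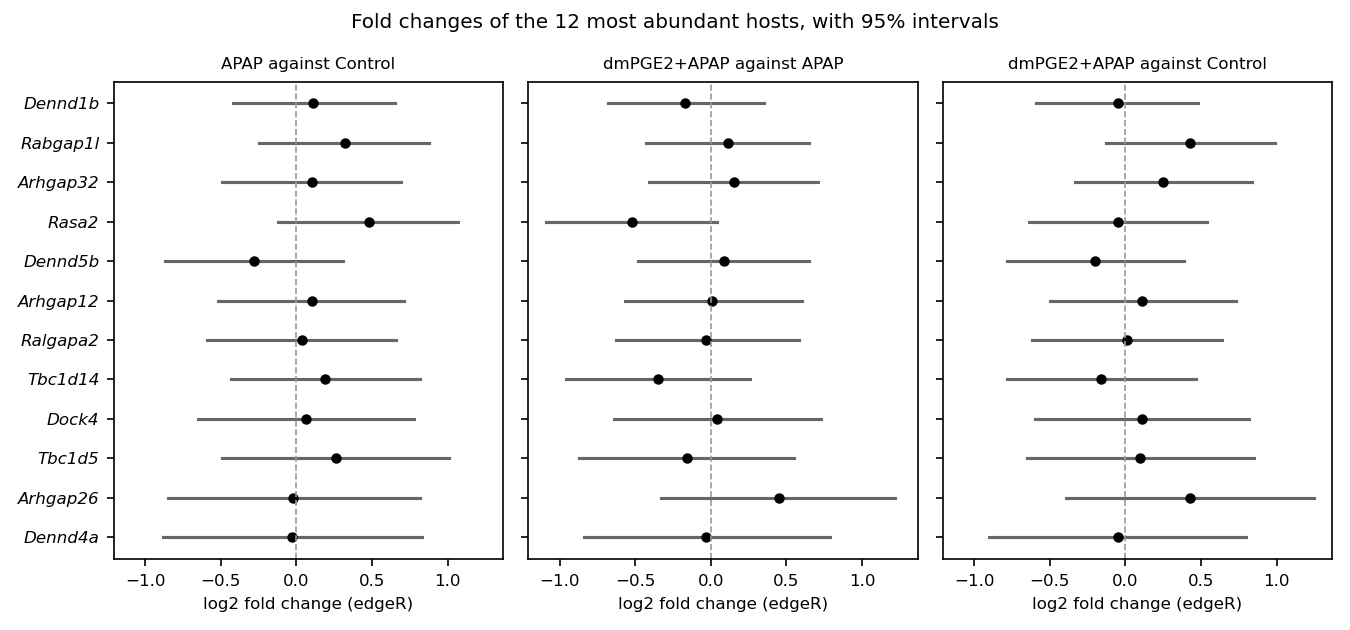
The log2 fold changes of edgeR (x axis) for the 12 most abundant hosts (rows) in the 3 comparisons (panels), with the 95% interval as a line and 0 dashed. All 36 intervals contain 0.

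The smallest p-values came from hosts with few reads. Arhgef18 (p114RhoGEF), a RhoA activator at tight junctions, had 0 reads in all 3 Control libraries, 4, 16 and 0 with APAP, and 25, 15 and 0 with dmPGE2+APAP. Its unadjusted edgeR p was 0.0266 for APAP against Control (adjusted p = 0.869) and 0.0125 for dmPGE2+APAP against Control (edgeR adjusted p = 1.0). Tbc1d22a, a TBC-domain protein, was listed at 0 in Control and had 6, 6 and 9 reads with APAP and 3, 0 and 0 with dmPGE2+APAP. Dock8, a Cdc42 activator best known from leukocytes, had 9, 9 and 0 reads in Control, 0 in all APAP libraries, and 3, 7 and 0 with dmPGE2+APAP. Agap3, an Arf GAP, was at 0 in Control, with 9, 0 and 0 reads with APAP and 16, 0 and 7 with dmPGE2+APAP. No fold is given for these hosts, since 1 group was at 0. For dmPGE2+APAP against Control, Agap1 and Rabgap1l were among the 5 hosts of smallest p. The log2 fold change of Agap1 was 0.75 (SE 0.45, edgeR adjusted p = 1.0), and 0.51 without Control 3, where it had no read. For dmPGE2+APAP against APAP, Arhgef37, Tbc1d2b and Arhgap5 stood beside Rasa2 and Dock8. Arhgap5 (p190-B), another GAP, had 11, 15 and 0 reads with APAP and 44, 18 and 18 with dmPGE2+APAP. Tbc1d2b, a Rab GAP, had 3, 20 and 0 reads in Control, 6, 9 and 9 with APAP and 0, 0 and 2 with dmPGE2+APAP. Arhgef37 had 7, 0 and 0 reads in Control, 0 in all APAP libraries and 12, 5 and 0 with dmPGE2+APAP.

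Single rings were tested in the same way over 4331 rings, 150 of them members and 199 members too sparse to test. No member ring was called by edgeR in the 3 comparisons, where 6 (0.139%), 3 (0.0693%) and 5 (0.115%) of all rings were, or in the joint test (9 rings, 0.208%). Unadjusted p-values under 0.05 were found for 2 member rings in APAP against Control (1.33%, against 5.17% of all rings), 4 in dmPGE2+APAP against APAP (2.67%, against 3.81%), 5 in dmPGE2+APAP against Control (3.33%, against 4.34%) and 2 in the joint test (1.33%, against 2.66%). DESeq2 and limma-voom called 0 member rings in each of the 3 comparisons, with 5, 6 and 2 and with 4, 11 and 7 rings at an unadjusted p under 0.05. For these tools no share over all rings is given here, so these counts cannot be read as more or fewer than in the whole table. The median log2 fold change of the tested member rings was 0.30, 0.04 and 0.35 in the 3 comparisons, beside 0.16, 0.08 and 0.24 over all rings, and 0.02, 0.03 and 0.17 without Control 3, beside -0.06, 0.06 and 0.0.

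The most abundant ring, the Arhgap12 ring of exons 2 to 3, had 203, 171 and 12 reads in Control, 146, 189 and 83 with APAP and 136, 129 and 189 with dmPGE2+APAP. The Rasa2 ring of exons 2 to 5 had 207, 147 and 5 reads in Control, 182, 108 and 135 with APAP and 97, 128 and 148 with dmPGE2+APAP. Dennd1b mmu_circ_0000083 had 197, 170 and 7 reads, 153, 163 and 115 reads, and 116, 138 and 115 reads in the same groups. On the CPM scale the groups overlapped for the Arhgap12 and Rasa2 rings, while for Dennd1b mmu_circ_0000083 the dmPGE2+APAP libraries (962, 1393 and 1002 CPM) lay below the APAP libraries (1408, 1489 and 1660 CPM), unlike the overlapping sums of its host, with a log2 fold change of -0.38 (SE 0.37, edgeR adjusted p = 1.0). The rings with the smallest p-values for APAP against Control included novel_circ_0006884, a 10-exon ring of Rabgap1l. It had 0 reads in all Control libraries, 19, 15 and 9 with APAP, and 0, 3 and 0 with dmPGE2+APAP. Its edgeR adjusted p was 0.799 for APAP against Control (unadjusted p = 0.0143), and it held 2.19% of the Rabgap1l reads. The Arfgef2 ring novel_circ_0008170 of exons 4 to 6 had 15, 15 and 0 reads in Control, 32, 47 and 14 with APAP, and 19, 7 and 35 with dmPGE2+APAP, a log2 fold change of 1.66 (SE 0.78, edgeR adjusted p = 0.799) for APAP against Control. The intronic Ralgapa2 ring novel_circ_0008010 was at 0 in Control, with 10, 0 and 6 reads with APAP and 11, 2 and 9 with dmPGE2+APAP.

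The next smallest p-values belonged to rings of Dennd4c, Iqgap2, Tbc1d5, Arhgap12 and Arhgef18 with no more than 17 reads in any library. Dennd4c novel_circ_0010472 had 6, 15 and 0 reads in Control, 9, 17 and 0 with APAP, and 0 in all 3 dmPGE2+APAP libraries. Iqgap2 novel_circ_0003029 had 0, 11 and 0 reads in Control, 0 in all APAP libraries, and 14, 2 and 5 with dmPGE2+APAP. Neither was called.

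Tbc1d14 gave a ring with an all-or-nothing pattern. The single-exon ring of exon 2 (novel_circ_0011331, chr5:36571296-36572037, 742 bases) had 85, 73 and 0 reads in Control, 57, 0 and 46 with APAP, and 0, 52 and 0 with dmPGE2+APAP. It was thus listed at 0 in 3 deep libraries and at no fewer than 46 reads in the other 5. With all libraries its log2 fold change was -1.13 (SE 0.58, edgeR adjusted p = 1.0) for dmPGE2+APAP against APAP and -1.43 (SE 0.58, adjusted p = 0.96) for dmPGE2+APAP against Control. Without dmPGE2+APAP replicate 2 the group is at 0 and the edgeR adjusted p fell to 5.94e-06 and 1.17e-06, so that 1 library decided these calls, which none of the other alternatives made. The rings novel_circ_0011330 and novel_circ_0011328, which use the same acceptor, did not follow it. The first had 15, 13 and 0 reads in Control, 10, 11 and 9 with APAP, and 11, 0 and 12 with dmPGE2+APAP, and the other 14, 5 and 0, then 9, 29 and 8, then 10, 5 and 21.

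Such gaps were common in the table. Of 65 member rings with a median of at least 10 reads in the deep libraries, 16 (24.6%) were listed at 0 in at least 1 of them, against 482 of 1863 (25.9%) over all rings. Tbc1d20 mmu_circ_0001089, of a Rab1 GAP, had 17, 47 and 0 reads in Control, 17, 26 and 19 with APAP, and 0, 28 and 18 with dmPGE2+APAP. Agap1 mmu_circ_0000060 had 30, 0 and 0 reads in Control, 23, 9 and 7 with APAP, and 40, 15 and 23 with dmPGE2+APAP. Among these 16 rings the one of Tbc1d14 had the highest median, 49 reads, and the others had medians of 10 to 21. Whether the gaps come from the detection step or from the samples was not tested.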

How the data were processed

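CircRNA back-splice reads were analysed in 9 liver libraries, 3 per group. The authors deposited 1 table of whole-number counts of back-splice reads per circRNA, with position, host gene and non-junction reads, per the file headers. HISAT2 and GRCm38 (mm10) are named, without a role, per the submitters' processing notes; for the circRNA caller and its filters, the entry is: not given in the sources used here. APAP and dmPGE2+APAP columns were matched by name, and the 3 columns with the unexplained code BC were taken as Control by elimination, with their own numbers. Non-junction lists could be split for 9559 of the 11312 circRNAs, and the others have no back-spliced share. Starts, which count from 0 in the table, were raised by 1. Symbols were matched to the rule, leaving out joint hosts, and 1 gene that the pattern also matches is not analysed here.

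Counts of rings and host sums with at least 5 reads in at least 3 libraries entered edgeR 4.0.16 (R 4.3.3; quasi-likelihood F test, TMM scaling, group means, all 9 libraries), with Benjamini-Hochberg adjustment over all features tested and a threshold of 0.05. The code was tested on simulated data. Exon ranks and junction sequences came from GENCODE M21 transcripts. Alternatives were DESeq2 1.42.0, limma-voom (limma 3.58.1), no TMM scaling, no filter or a minimum of 10 reads, a replicate block and leaving out each library. Back-spliced shares and ring pairs were compared by exact permutation tests (SciPy 1.17.1), chosen after seeing the data. CPM with TMM library sizes was added after seeing the data. Wilson intervals are at 95% and cover counting error only.

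Hosts named are the 12 of highest mean CPM, the most abundant of each family and, per comparison, the 5 of smallest p; rings named are the 10 of highest mean CPM and, per comparison, the 4 of smallest p. Others were named after their values were seen. Members and lists were chosen with earlier results of these data known.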

Additional observations from a re-analysis of the deposited data

How the results depend on the processing

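No member host was called under any alternative. Member rings called were 0 under every alternative that kept all 9 libraries, and 0 to 1 when single libraries were left out, in dmPGE2+APAP against APAP and in dmPGE2+APAP against Control. The 1 call was the Tbc1d14 ring novel_circ_0011331, without dmPGE2+APAP replicate 2. In that setting the joint test of the 3 groups called it too (edgeR adjusted p = 6.32e-06). The share of reads held by member hosts became 2.48%, 2.63% and 2.56% in Control, APAP and dmPGE2+APAP without the most abundant ring, and 3.35%, 3.27% and 3.33% as a share of detected circRNAs. Among hosts and rings named for their small p, Rabgap1l, Dennd1b mmu_circ_0000083, the ring use of Tbc1d5 and the joint tests, 636 of 638 recomputed values kept their side of the threshold and, where signed, their direction. The log2 fold changes of the 19 hosts and 10 rings named for abundance were less stable: 106 of 836 host values and 40 of 440 ring values changed sign, all from estimates of 0.28 or smaller in size. Without Control 3, 7 of the 19 hosts changed sign for APAP against Control.

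The replicate numbers of the APAP and dmPGE2+APAP libraries gave no sign of pairing in the host levels. Whether same-numbered libraries were prepared together cannot be told from this. Deviations of same-numbered libraries from their group means correlated at 0.0, 0.0 and 0.02 over hosts. With the numbers as a replicate block, 0 member hosts and 0 member rings were called for dmPGE2+APAP against APAP, as without the block in the same 6 libraries. The BC columns of the controls were not used for pairing.

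The few back-splice reads of Control 3 limit every comparison with Control. Its back-spliced share was also far lower, at 6.59% against 69.4% to 73.7% in the other 8 libraries over the same 19 member rings. It thus differed in more than the number of back-splice reads, and the reason was not tested. Control 3 also enters the estimate of the spread that all groups share. For dmPGE2+APAP against APAP, the standard errors of the 12 most abundant hosts were 0.26 to 0.41 with it and 0.16 to 0.30 without it. A further limit is that 28 member hosts and 199 member rings had too few reads to test.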
